A study of Homo sapiens with 4 samples.

Results

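The circadian clock genes described here are PER1, PER2, PER3, CRY1, CRY2, NR1D1, NR1D2, DBP, BHLHE40 and CLOCK, which are 10 of the 23459 genes in the count files and were found by matching their NCBI Gene identifiers to current symbols. RNA-Seq was performed on wild type hTERT RPE-1, a non-cancerous human line from the retinal pigment epithelium that was made immortal with telomerase. All cells were starved for 48 h in medium with 0.1% serum and then exposed to merbarone (200 μM), a catalytic inhibitor of topoisomerase II (TOP2). There were 2 replicates at 4 h and 2 at 8 h, and every group carried the drug. Untreated cells were not analysed here, so each change is between 4 h and 8 h of exposure, and hours of drug, hours without serum and hour of harvest cannot be told apart.

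The clock is a feedback loop of transcription. CLOCK and BMAL1 form a dimer that binds E-boxes and switches on the PER and CRY genes, whose proteins return to the nucleus and inhibit that dimer. The nuclear receptors NR1D1 and NR1D2 (REV-ERB alpha and beta) form another loop by repressing BMAL1, DBP carries the rhythm to output genes through D-boxes, and BHLHE40 competes for E-boxes. Cultured cells keep such clocks, and in many cell types PER1 is also an early response gene of cAMP and glucocorticoid signals.

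From 4 h to 8 h, 5 of the 10 clock genes rose and none passed the test as lower. PER1 rose the most, with 2.8 times the normalized count at 8 h, followed by NR1D1 with 1.91 times. CRY2, BHLHE40 and NR1D2 rose by 1.43, 1.42 and 1.41 times. PER2, PER3, CRY1, DBP and CLOCK did not pass. A gene passed when its Benjamini-Hochberg adjusted p in edgeR's quasi-likelihood test, fitted over all 12559 genes retained by the CPM filter, was below 0.05. All 10 clock genes were retained. Among all genes tested, 19.9% were higher and 18.8% lower by this rule. The clock genes were chosen with earlier results of these data known, so these shares are not an unbiased yardstick for them. With an absolute log2 fold change (log2FC) above 1 as well, only PER1 remained, against 1.45% of all genes higher and 3.88% lower. By adjusted p, edgeR, Limma-Voom and DESeq2 each called 5 clock genes higher and 0 lower. Over all 12559 genes, Limma-Voom called 2483 higher and 2339 lower, and DESeq2 1792 and 1498. At an unadjusted p below 0.05, edgeR, Limma-Voom and DESeq2 gave 6, 6 and 5 clock genes higher and 0 lower. No share over all genes at that unadjusted threshold is given to set beside these counts. The median log2FC was 0.50 over the 10 genes and 0.00 over all genes.

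Depth ranged from 8064450 to 10324697 counts per library. With library size as the only scaling instead of TMM,  the median log2FC of all genes was −0.11, so every change is relative to the centre that TMM sets. The calls over all genes were then 1698 higher and 3289 lower, against 2500 higher and 2367 lower with TMM. Of 8 markers of retinal pigment epithelium, MITF, OTX2 and PMEL were retained, RPE65, BEST1 and RLBP1 had at most 7 counts in a library, TTR at most 1 and TYR none. Summed, these markers reached 94.3 to 100 CPM at 4 h and 107 to 115 CPM at 8 h. The epithelial keratins KRT8 and KRT18 gave 687 to 742 CPM at 4 h and 593 to 644 CPM at 8 h. Of these KRT18 fell (log2FC −0.51), while KRT8 had a log2FC of 0.03 with overlapping replicates. The mesenchymal list of VIM, COL1A1 and COL1A2 gave 8440 to 8530 and 9820 to 11800 CPM, nearly all of it VIM (log2FC 0.36), whereas COL1A1 fell (log2FC −0.80) and COL1A2 had at most 2 counts in a library. The pairs of markers of leukocytes, endothelium and photoreceptors summed to at most 0.749, 0.518 and 0.0946 CPM in any library. The part of these shifts in the changes below was not tested, and in bulk RNA fewer cells of a type and less RNA per cell cannot be told apart.

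**Figure D1:**
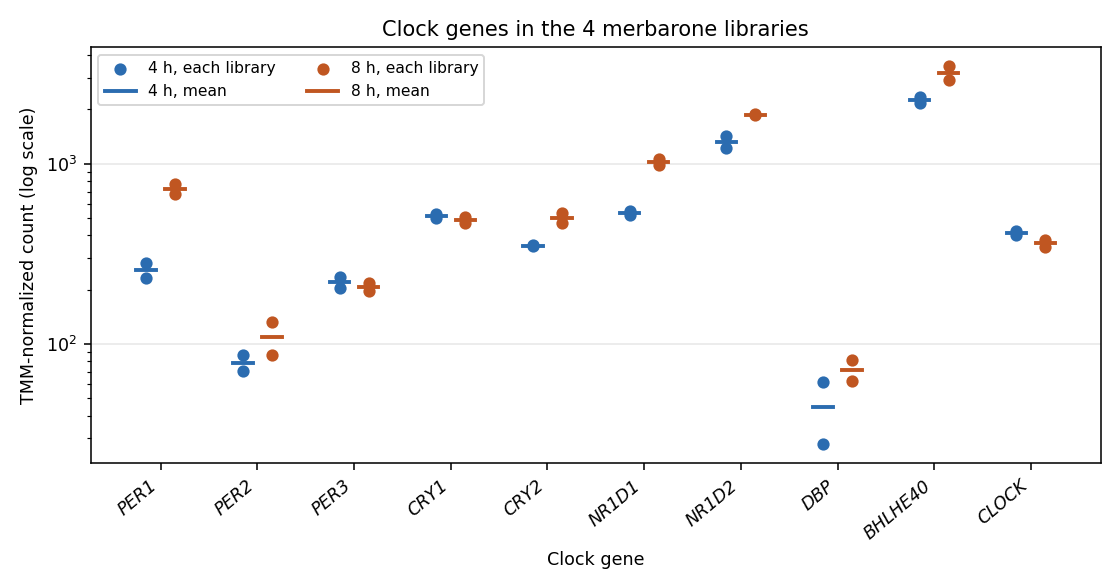
TMM-normalized counts (log axis) of the 10 clock genes, with a point for each library and a bar for the mean of 2 libraries at 4 h (blue) and 8 h (orange). PER1 and NR1D1 show the widest gaps between the times, while the points of PER2, PER3 and CRY1 overlap and those of DBP at 4 h lie far apart, at 27.8 and 61.7.

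The PER genes encode the repressor proteins whose slow accumulation and decay time the loop. PER1 (chromosome 17, 8043790 to 8059824, minus strand, hg19) had normalized counts of 232 and 283 at 4 h, against 677 and 768 at 8 h. Both 8 h libraries thus lay far above both 4 h libraries, and the means were 258 ± 35.7 and 723 ± 64.2 (SD, n = 2 each). Its log2FC was 1.49 (standard error 0.12, edgeR adjusted p = 1.29e-08), which placed it at percentile 99.7 of the log2FC of all genes.

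PER2 (chromosome 2, 239152685 to 239198743, minus strand) was counted sparsely, with 70.9 and 87.0 normalized counts at 4 h, then 86.9 and 132 at 8 h. The lower 8 h library fell just below the higher 4 h library. The log2FC was 0.45 with a 95% interval of −0.01 to 0.91 (edgeR adjusted p = 0.109). Without 8 h replicate 1 it was 0.74 (adjusted p = 0.00672) and without 8 h replicate 2 it was 0.14 (adjusted p = 0.696). With all 4 libraries and loess offsets, which remove a trend with mean log2-CPM, it was 0.60 (adjusted p = 0.0397). PER3 (chromosome 1, 7844351 to 7905237, plus strand) had 204 and 235 normalized counts at 4 h, against 196 and 219 at 8 h, in overlapping ranges. Its log2FC was −0.08 with an interval of −0.38 to 0.22 (edgeR adjusted p = 0.675). UTS2, which covers 13.6% of its exonic bases on the opposite strand, had no counts.

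Within each library the ratio of raw counts of PER1 to PER3 does not depend on the scaling between libraries. Its log2 was 0.19 and 0.27 at 4 h, then 1.79 and 1.81 at 8 h. The log2 ratio of PER1 to PER2 was 1.71 and 1.70 at 4 h, against 2.96 and 2.54 at 8 h. PER1 therefore gained on both relatives in each 8 h library. That of PER2 to PER3 moved less, from −1.52 and −1.43 to −1.18 and −0.73. An exact permutation test of 2 libraries against 2 cannot give a two-sided p below 0.333, so these ratios are given without a test.

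The CRY genes encode the cryptochromes, the partners of PER that hold the CLOCK and BMAL1 dimer inactive. CRY2 (chromosome 11, 45868669 to 45904799, plus strand) had 353 and 349 normalized counts at 4 h, then 532 and 469.7 at 8 h. The times did not overlap, and the 4 h replicates were nearly equal (351 ± 2.58 against 501 ± 43.95, SD, n = 2 each). Its log2FC was 0.52 (standard error 0.11, edgeR adjusted p = 0.000892). CRY1 (chromosome 12, 107385142 to 107487327, minus strand) had 497 and 526 normalized counts at 4 h, against 469 and 507 at 8 h. These ranges overlapped, and the log2FC of −0.07 had an interval of −0.28 to 0.14 (edgeR adjusted p = 0.619). The log2 ratio of CRY2 to CRY1 counts was −0.50 and −0.59 at 4 h, then 0.18 and −0.11 at 8 h. The raw counts of the cryptochromes were thus about equal at the later time. In reads per kilobase of transcript (RPKM), CRY1 stayed higher at 8 h, with 16.4 and 17.7 against 13.4 and 11.9 for CRY2.

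The NR1D genes encode receptors that bind heme and recruit the corepressor NCOR1. NR1D1 (chromosome 17, 38249046 to 38256842, minus strand) had 521 and 546 normalized counts at 4 h, against 987 and 1055 at 8 h. Replicates of a time were close together and the times far apart (534 ± 17.2 against 1021 ± 48.1, SD, n = 2 each). Its log2FC was 0.94 (standard error 0.09, edgeR adjusted p = 1.94e-07), just under the fold-change threshold of 1. NR1D2 (chromosome 3, 23986777 to 24022108, plus strand) had 1421 and 1227 normalized counts at 4 h, then 1861 and 1872 at 8 h, without overlap. Its log2FC was 0.50 (standard error 0.09, edgeR adjusted p = 0.000135). The log2 ratio of NR1D1 to NR1D2 counts was −1.45 and −1.17 at 4 h, against −0.92 and −0.83 at 8 h.

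NR1D1 shares 18% of the exonic bases of its canonical transcript with THRA on the opposite strand. The use of strand in counting is not given in the sources used here, so reads of the shared part may belong to either gene. THRA had 293 and 332 normalized counts at 4 h, then 370 and 386 at 8 h, with a log2FC of 0.27 (edgeR adjusted p = 0.0684).

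DBP and BHLHE40 act downstream and as feedback. BHLHE40 (chromosome 3, 5021122 to 5027008, plus strand), also called DEC1, is a repressor that responds to serum, hypoxia and other stimuli. Its normalized counts were 2177 and 2333 at 4 h, against 3463 and 2920 at 8 h, without overlap between the times and with a wide gap between the 8 h replicates. The log2FC was 0.50 (standard error 0.09, edgeR adjusted p = 0.000119). The antisense BHLHE40-AS1, which covers 5.77% of its exonic bases, had at most 21 counts in a library.

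DBP (chromosome 19, 49133287 to 49140636, minus strand) was the least counted clock gene, with raw counts of 31 and 68 at 4 h, then 61 and 66 at 8 h. After normalization these were 27.8 and 61.7 against 62.4 and 82.0, so that the times were separated by less than 1 count. The log2FC of 0.68 had an interval of 0.07 to 1.29 (edgeR adjusted p = 0.0746). Without 4 h replicate 2 it was 1.36 (adjusted p = 0.00882), without 8 h replicate 1 it was 0.88 (adjusted p = 0.0124), and without 4 h replicate 1 only 0.21. With the replicate number as a block, DBP also passed, with a log2FC of 0.73 (adjusted p = 0.0107). DBP shares 30.5% of its exonic bases with SPHK2 on the opposite strand, which had 158 and 166 normalized counts at 4 h, against 117 and 204 at 8 h.

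CLOCK (chromosome 4, 56294070 to 56413076, minus strand) is the member on the activating side. It had 400.2 and 425 normalized counts at 4 h, then 378 and 343 at 8 h. Both 8 h libraries lay below both 4 h libraries, which held for 34.9% of all genes, while 6 of the 10 clock genes had both above, against 34.8% of all genes. With library size alone, 5 had both above and 3 both below. The shares above are those with TMM, and shares over all genes with library size alone are not given. The log2FC of CLOCK was −0.19 with an interval of −0.42 to 0.04 (edgeR adjusted p = 0.18). Of 12 other settings, only library size alone gave a pass as lower (log2FC −0.30, adjusted p = 0.0404). TMEM165, which fell (log2FC −0.49, edgeR adjusted p = 0.00139), shares 0.726% of the exonic bases of CLOCK.

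**Figure D2:**
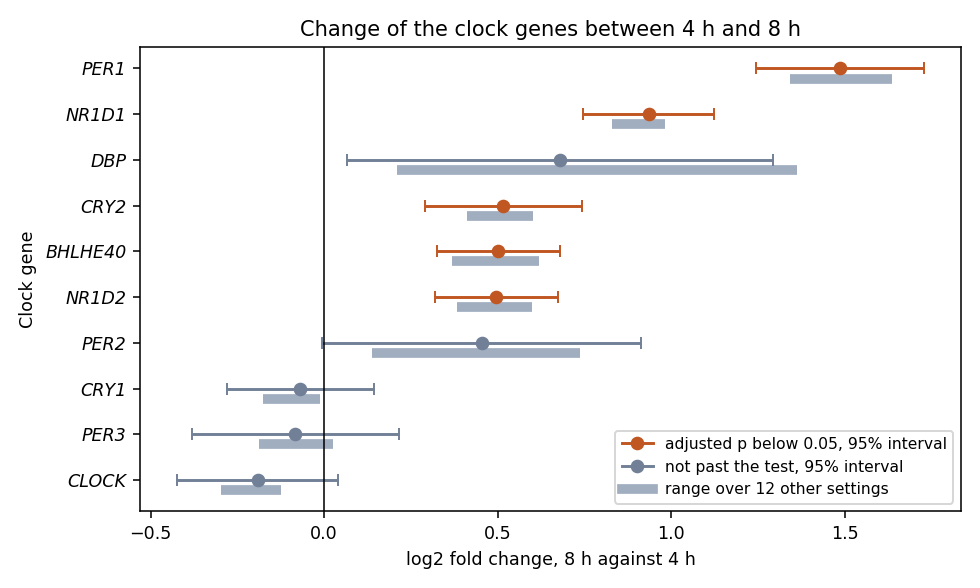
Log2FC of each clock gene at 8 h against 4 h from edgeR (x axis), with 95% intervals as error bars and, in grey below each, the range over 12 other settings. The 5 genes in orange passed the test and kept positive values in each setting, from PER1 at 1.49 to NR1D2 at 0.50. The range of DBP ran from 0.21 to 1.36.

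Levels of different genes were compared as RPKM, that is, reads per kilobase of the GENCODE canonical transcript after scaling to the TMM-corrected library size. BHLHE40 was the most abundant, with 74.6 ± 3.64 RPKM at 4 h and 106 ± 12.7 at 8 h (SD, n = 2 each). At 4 h it was followed by NR1D2 (26.4), NR1D1 (21.2), CRY1 (17.9), CRY2 (8.86), PER1 (5.75), CLOCK (4.11), PER3 (3.59), DBP (2.15) and PER2 (1.29). The only neighbours in this order whose replicates overlapped were DBP and PER2. At 8 h the RPKM of NR1D1 (40.5) was above that of NR1D2 (37.2), and PER1 (16.1) came next to CRY1 (17.0), with overlapping replicates, and above CRY2 (12.6). CLOCK (3.59), DBP (3.47) and PER3 (3.40) overlapped at 8 h, and PER2 stayed last (1.79). PER1 thus moved from below CRY2 to the level of CRY1, while the ends of the order did not change. Ranks between genes also carry the loss of reads across splice junctions, which lowers counts of genes with many short exons. The value of NR1D1 may include reads of THRA.

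Sequences around the start of each gene were taken from RefSeq (GRCh38.p14), from 250 bases before to 50 bases after the start. All 10 genes matched, with 14 windows in all, since PER3, CRY2, NR1D2 and CLOCK have 2 each. Both strands were searched for the E-box CACGTG, the D-box TTATGTAA, TGACG (the core of the cAMP response element) and AGGTCA (the core of NR1D and ROR sites). The E-box reads the same on both strands, and matches of TGACG include the full element that holds it on both strands. The E-box was found at 3 of the 10 genes, PER1, NR1D2 and BHLHE40, that is in 3 of the 14 windows, and in 7.26% of all 35116 windows. These 3 genes rose, but so did CRY2 and NR1D1, whose windows held no E-box. The windows of NR1D1 and DBP held none of the 4 motifs. A link of any motif to a rise was not tested. TGACG was found at 5 genes, PER2, CRY1, CRY2, NR1D2 and CLOCK, in 7 of 14 windows (24.6% of all windows). AGGTCA was found at PER1 and CRY2, in 3 of 14 (13.8%), and the D-box at PER3 and NR1D2, in 2 of 14 (0.886%). A match is a description of the letters and not a site of binding, and elements outside the windows were not searched.

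The 4 windows that follow are those of the E-box genes and, for contrast, of NR1D1, with all matches in capitals. In PER1 the E-box starts 173 bases before the gene's start. The NR1D2 window belongs to its more downstream start and holds E-boxes 155 and 105 bases, a D-box 194 bases and TGACG 204 and 16 bases before it. In BHLHE40 the E-box lies 245 bases before the start, at the edge of the window.
PER1 (GRCh38.p14 chr17:8152355-8152654, minus strand): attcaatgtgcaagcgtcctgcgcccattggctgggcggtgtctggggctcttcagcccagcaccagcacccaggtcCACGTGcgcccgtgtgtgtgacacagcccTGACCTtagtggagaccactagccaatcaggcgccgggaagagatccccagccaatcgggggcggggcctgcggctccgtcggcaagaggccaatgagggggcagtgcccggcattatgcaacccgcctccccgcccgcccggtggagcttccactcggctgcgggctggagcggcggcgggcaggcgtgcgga
NR1D2 (GRCh38.p14 chr3:23945871-23946170, plus strand): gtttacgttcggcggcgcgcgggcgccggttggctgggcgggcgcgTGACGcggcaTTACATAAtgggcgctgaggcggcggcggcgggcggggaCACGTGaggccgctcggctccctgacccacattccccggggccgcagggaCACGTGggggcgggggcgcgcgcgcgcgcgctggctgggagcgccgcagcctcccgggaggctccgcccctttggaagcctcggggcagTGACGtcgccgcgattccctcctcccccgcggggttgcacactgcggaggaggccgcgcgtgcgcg
BHLHE40 (GRCh38.p14 chr3:4979187-4979486, plus strand): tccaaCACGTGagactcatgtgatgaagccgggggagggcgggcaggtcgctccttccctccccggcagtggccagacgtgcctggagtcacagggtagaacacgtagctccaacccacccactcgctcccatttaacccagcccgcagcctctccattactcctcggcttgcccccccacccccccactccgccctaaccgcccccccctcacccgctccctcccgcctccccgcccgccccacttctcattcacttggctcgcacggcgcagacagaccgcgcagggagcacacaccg
NR1D1 (GRCh38.p14 chr17:40100540-40100839, minus strand): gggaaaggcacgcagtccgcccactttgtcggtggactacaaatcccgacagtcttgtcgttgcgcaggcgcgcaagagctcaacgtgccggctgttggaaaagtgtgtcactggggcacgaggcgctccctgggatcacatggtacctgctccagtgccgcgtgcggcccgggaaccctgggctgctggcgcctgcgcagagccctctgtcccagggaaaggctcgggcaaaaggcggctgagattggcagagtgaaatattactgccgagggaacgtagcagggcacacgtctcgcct

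Around the 10 genes, 38 other genes of the clock pathway were listed by role, and 36 of them were retained. These lists, too, were chosen with earlier results of these data known. At 8 h 15 were higher, 7 lower and 14 did not pass, against 19.9% and 18.8% of all genes in the 2 directions. No gene of this list passed with an absolute log2FC above 1 in edgeR, Limma-Voom or DESeq2, also at an unadjusted p below 0.05. By adjusted p with this fold change in edgeR, 1.45% of all genes were higher and 3.88% lower. With shares this small, 0 of 36 genes is not a result about the list. The median log2FC of the list was 0.18. The activators that pair with CLOCK or replace it did not pass. BMAL1 had 158 and 166 normalized counts at 4 h, against 130 and 134 at 8 h, all lower at 8 h, with a log2FC of −0.30 and an interval of −0.63 to 0.04 (edgeR adjusted p = 0.155). BMAL2 and NPAS2, which stand in for BMAL1 and CLOCK in some tissues, had log2FC of −0.06 and 0.06 with overlapping replicates. The sign of NPAS2 turned to −0.047 with library size alone. None of the 3 had an unadjusted p below 0.05 in edgeR, Limma-Voom or DESeq2, a threshold without a given share over all genes. Of the ROR receptors, which activate BMAL1 at the sites where NR1D proteins repress it, RORA had only 11 to 23 counts per library. RORB had none, which allows up to 0.372 CPM in the smallest library.

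The output factors moved in both directions. TEF, a relative of DBP that binds the same D-box, rose from 320.4 and 322 normalized counts to 543 and 547 (log2FC 0.76, standard error 0.10, edgeR adjusted p = 1.27e-05). Its replicates were nearly equal at both times. HLF, the other relative, had at most 14 counts and was not retained. NFIL3, which opposes DBP at D-boxes, fell from 715 and 762 to 582 and 598 (log2FC −0.33, edgeR adjusted p = 0.00923), and without 4 h replicate 2 it did not pass (log2FC −0.28, adjusted p = 0.118). CIART, a repressor of the CLOCK and BMAL1 dimer, went from 35.9 and 54.4 to 79.8 and 69.6 (log2FC 0.73, edgeR adjusted p = 0.0242). This call was lost with DESeq2 (adjusted p = 0.132), without 4 h replicate 1 (log2FC 0.45, adjusted p = 0.28) and without 8 h replicate 1 (0.62, adjusted p = 0.0874).

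BHLHE41, the close relative of BHLHE40, went the other way. Its normalized counts were 311 and 367 at 4 h, then 170 and 194 at 8 h, with all 8 h values well below (log2FC −0.90, standard error 0.14, edgeR adjusted p = 4.13e-05). The log2 ratio of BHLHE40 to BHLHE41 counts was 2.81 and 2.67 at 4 h, against 4.35 and 3.91 at 8 h, a mean difference of 1.39.

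**Figure D3:**
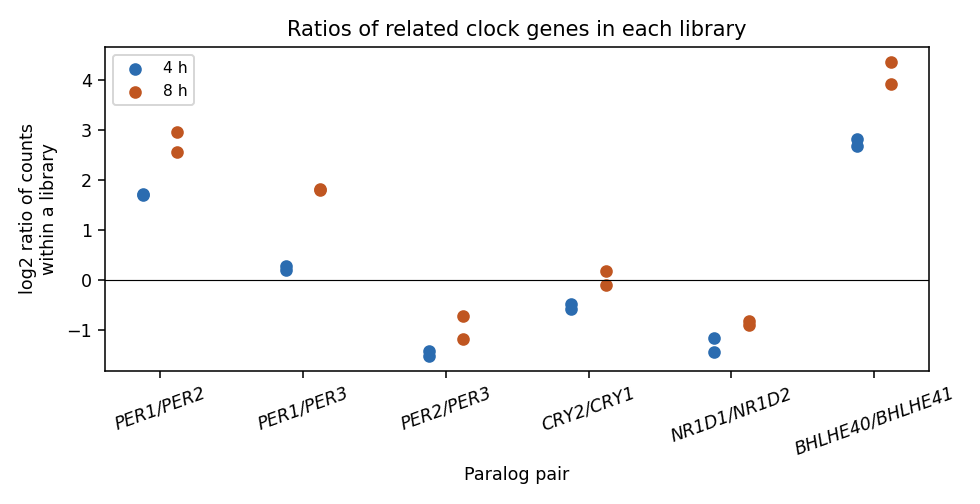
Log2 ratios of raw counts between related clock genes, 1 point per library, at 4 h (blue) and 8 h (orange). In all 6 pairs both 8 h points lie above both 4 h points, a direction set by which gene was written first. The PER pairs share their genes, and the share of separated pairs over all genes was not computed. The widest mean differences were those of PER1 to PER3 (1.57) and BHLHE40 to BHLHE41 (1.39).

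Kinases, ubiquitin ligases and a protease act on the stability of PER and CRY proteins. All 9 had both 8 h libraries above both 4 h libraries with TMM, against 34.8% of all genes. With library size alone 6 did, without a share over all genes under that scaling to set beside it. Of these 9 genes, 5 rose and none passed as lower, against 19.9% of all genes higher and 18.8% lower. At an unadjusted p below 0.05 there were also 0 lower in edgeR, Limma-Voom and DESeq2, again without a share over all genes. CSNK1E, the casein kinase that marks PER for decay, rose from 1351 and 1430 to 2259 and 2228 normalized counts (log2FC 0.69, standard error 0.08, edgeR adjusted p = 1.28e-06). Its relative CSNK1D had 1353 and 1399 at 4 h, then 1527 and 1552 at 8 h (log2FC 0.16, edgeR adjusted p = 0.112). FBXW11, GSK3B and CSNK1A1 rose with log2FC of 0.47, 0.45 and 0.32. USP2, a deubiquitinase with 21 to 34 counts per library, had a log2FC of 0.89 (edgeR adjusted p = 0.0377). Its call was lost with DESeq2 (adjusted p = 0.195), with library size alone (0.0628) and without either 4 h replicate or 8 h replicate 2 (log2FC of 0.66 to 0.94).

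Among the cofactors, the acetyltransferases EP300 and CREBBP rose. EP300 had 443 and 476 normalized counts at 4 h, against 839 and 939 at 8 h (log2FC 0.95, standard error 0.10, edgeR adjusted p = 3.76e-07), and CREBBP had 1351 and 1431, then 2014 and 2446 (log2FC 0.68, edgeR adjusted p = 9e-06). SIRT1, a deacetylase, had a log2FC of 0.36 (edgeR adjusted p = 0.00545) and did not pass without 4 h replicate 1 (adjusted p = 0.055) or 2 (0.0555), at nearly the same log2FC (0.35 in both). TIMELESS, which also works at the replication fork, fell from 923 and 954 to 665 and 609 (log2FC −0.56, edgeR adjusted p = 7.97e-05). NCOR1, NONO and HDAC3 did not pass.

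The listed genes under clock control were divided, with 2 higher, 2 lower and WEE1 not past the test. Among all genes 19.9% were higher and 18.8% lower. NAMPT, the rate-limiting enzyme of NAD salvage, rose from 167 and 168 to 276 and 273 normalized counts (log2FC 0.72, edgeR adjusted p = 0.00035), and KLF9 had a log2FC of 0.67 (edgeR adjusted p = 0.00051). NOCT, a phosphatase with a strong rhythm in many tissues, fell from 786 and 684 to 495 and 529 (log2FC −0.52, edgeR adjusted p = 0.000416), and KLF10 had a log2FC of −0.47 (edgeR adjusted p = 0.000838).

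The list for the cAMP and glucocorticoid routes to PER1 held 5 inputs, CREB1, CRTC1, CRTC2, CRTC3 and NR3C1, and the glucocorticoid-induced genes TSC22D3 and FKBP5. It gave 3 higher, 2 lower and 2 not past the test. The shares over all genes were 19.9% higher and 18.8% lower. All 7 genes were listed under the same role, so the division into inputs and induced genes is a description only. TSC22D3 and FKBP5 do not stand for induced genes in general. PER1, which responds to glucocorticoid signals in many cell types, rose (log2FC 1.49). CREB1, the factor of the cAMP response element, and its coactivator CRTC2 had log2FC of 0.44 and 0.60 (edgeR adjusted p = 0.00117 and 0.000299). The glucocorticoid receptor NR3C1 had a log2FC of 0.25 (edgeR adjusted p = 0.0198), and its call was lost with DESeq2, library size alone and loess offsets (adjusted p = 0.0601, 0.173 and 0.189) and without either 4 h replicate or 8 h replicate 2 (log2FC of 0.21 to 0.28). TSC22D3 and FKBP5 fell with log2FC of −0.64 and −0.51 (edgeR adjusted p = 2.54e-06 and 0.000664). TSC22D3 had 3057 and 2884 normalized counts at 4 h, then 1924 and 1897 at 8 h.

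**Figure D4:**
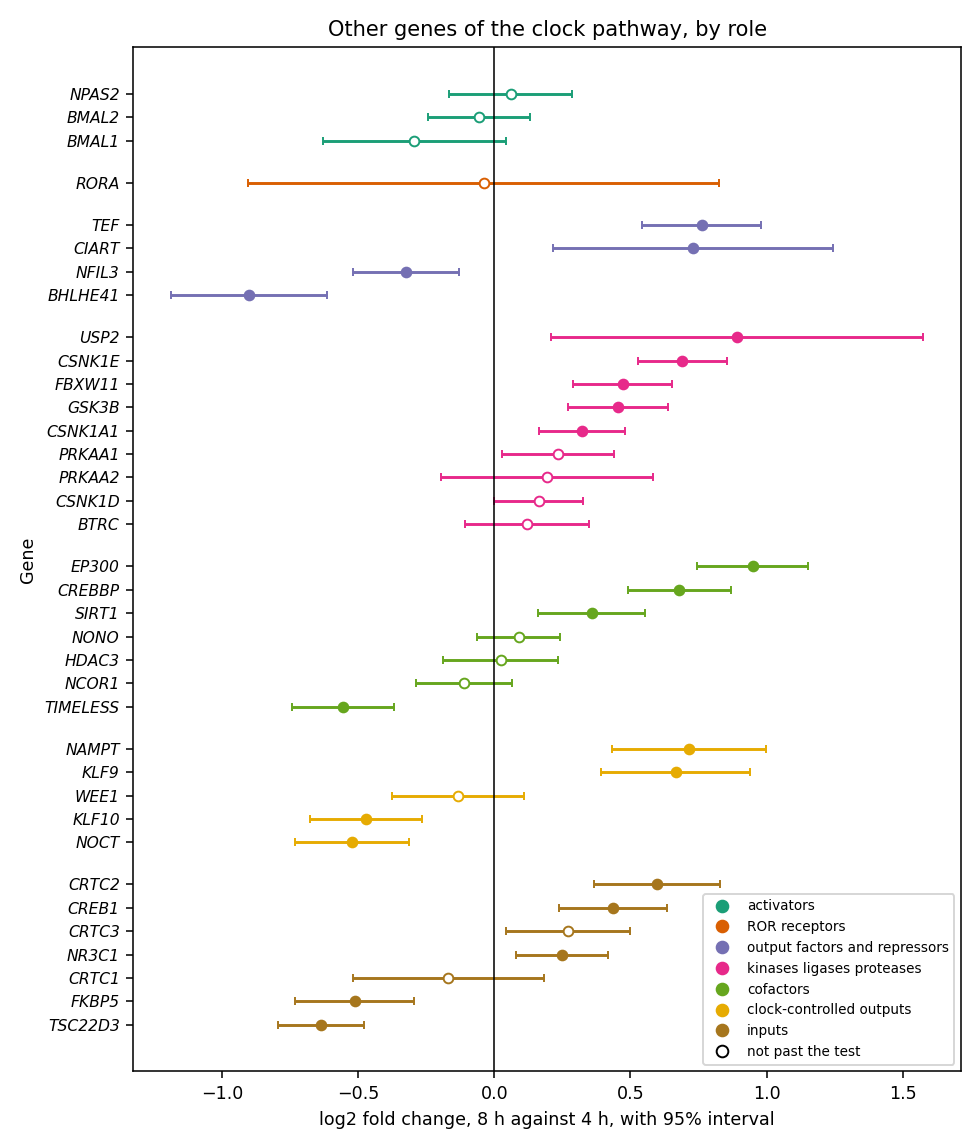
Log2FC at 8 h against 4 h (x axis) with 95% intervals for the 36 retained genes of the wider clock pathway, coloured by role, with open symbols for genes that did not pass. All 9 points of the kinase, ligase and protease list lie above 0, while cofactors, output factors, clock-controlled genes and inputs spread to both sides, from EP300 at 0.95 to BHLHE41 at −0.90.

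The genes outside the clock lists whose 4 library values were most like those of PER1 were IL6, JMY and OSGIN1, chosen among genes whose normalized count averaged 100 or more. The measure was the distance between log2-CPM values centred on each gene's mean, over 4 libraries. IL6, a cytokine, had 110 and 132 normalized counts at 4 h, against 336 and 374 at 8 h (distance 0.066, log2FC 1.56). JMY had 227 and 284, then 622 and 768 (distance 0.102, log2FC 1.44), and OSGIN1 had 68.2 and 91.6, then 203 and 230 (distance 0.111, log2FC 1.43). With 2 libraries per time, such likeness mostly reflects a rise of similar size.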

How the data were processed

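Sequence reads were mapped by the authors to hg19 with Bowtie 1.2.0, keeping reads with a single position, and the deposited files hold raw counts per NCBI Gene identifier, 1 file per library, neither normalized nor pooled. The gene annotation, the counting tool and the use of strand are not given in the sources used here. Reads across splice junctions are lost to Bowtie, which lowers counts of genes with many short exons. RefSeq (GRCh38.p14) gave symbols for 23308 of 23459 identifiers, and GENCODE on GRCh37 gave positions, canonical transcripts and overlaps.

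Genes with CPM above 1 in at least 2 libraries were tested (12559) with edgeR 4.0.16 (TMM, quasi-likelihood, time as the only term) in R 4.3.3. Standard errors are the log2FC over the square root of F, and 95% intervals use the t distribution of that fit. Alternatives were Limma-Voom (limma 3.58.1), DESeq2 1.42.0, library size alone, RLE, loess offsets, other filters, a replicate block and leaving out each library. On counts simulated for 12559 genes with 200 changed, edgeR recovered 53.7%, 82.1% and 100% of changes of 0.5, 1 and 2 in log2FC, with 9 false calls. In the data themselves 38.8% of genes were called, a far larger share, so these rates need not hold for the calls given here.

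The study describes the replicates as biological. All 10 clock genes are named, and of the wider list those that passed and all activators, ROR receptors and output factors. NCOR1, NONO, HDAC3, CSNK1D, WEE1, CRTC1, CRTC3 and genes that overlap a member were named after their values were seen. The members and lists were chosen with earlier results of these data known. A pair of genes first listed in the wider pathway is not reported here. The 3 genes most like PER1 were the nearest by Euclidean distance.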

Additional observations from a re-analysis of the deposited data

How the results depend on the processing

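PER1, CRY2, NR1D1, NR1D2 and BHLHE40 passed as higher under all 12 other tests, scalings, filters, blocks and left-out libraries. The count of clock genes higher at 8 h was 5 to 7 in these settings, and 1 with an absolute log2FC above 1 as well. The count of lower clock genes was 0 except with library size alone, when it was 1 (CLOCK, log2FC −0.30, adjusted p = 0.0404). With loess offsets PER2 (0.60, adjusted p = 0.0397) and DBP (0.85, adjusted p = 0.0285) passed, and DBP also without a filter on low counts (0.68, adjusted p = 0.0446). The cause was not tested. Leaving out 1 library in turn, the lone library being assumed to vary like the others, gave log2FC of 0.14 to 0.74 for PER2, −0.19 to 0.025 for PER3 and 0.21 to 1.36 for DBP, and PER3 was above 0 only without 4 h replicate 2. Of the wider list, 17 of 22 calls held in each of these 12 settings, and the counts of 15 higher and 7 lower fell to 0 and 0 with the fold-change threshold. By that threshold with adjusted p, 1.45% of all genes were higher and 3.88% lower in edgeR. Signs turned for genes that had not passed: NPAS2 with library size alone (−0.047), RORA with loess offsets (0.19), and, with 1 library left out, BMAL2 (−0.14 to 0.025), NPAS2 (−0.045 to 0.16) and RORA (−0.35 to 0.34, with 0.14 without 8 h replicate 2).

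The labels do not say whether same-numbered libraries share a culture, day or batch. Deviations of these libraries from the group means had a correlation of 0.05 over all tested genes. It was 0.12 over the 9379 whose mean normalized count was 100 or more. With the replicate number as a block, 6 clock genes were higher, DBP being added (0.73, adjusted p = 0.0107), and none was lower. In the wider list 17 were higher and 7 lower. The block also raised the calls over all 12559 genes, to 2829 higher and 2664 lower. Over all genes, the calls of 2500 higher and 2367 lower became 1792 and 1498 with DESeq2, 1605 and 1509 without 4 h replicate 1, and 1619 and 1522 without 4 h replicate 2. Counts of 31 to 106 per library limit what can be said of DBP and PER2.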
